A study of Mus musculus with 26 samples.

Results

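The 9 genes described here encode receptors for neurotrophic factors and were taken by symbol from the deposited tables, where they are 9 of 56941 genes: Ret, Gfra1 and Gfra2, Ntrk2, Ntrk3 and Ngfr, and Cntfr, Lifr and Il6st. They were measured by bulk RNA sequencing in 26 libraries of HBG3 spheroids. HBG3 is an embryonic stem cell line of the mouse in which the HB9 (Mnx1) promoter drives GFP, and the labels trace it to heterozygous blastocysts. All groups share this 1 line, differentiation with retinoic acid and a Hedgehog agonist, and the addition of CNTF and GDNF on day 5, so no group was without these factors. At about day 8 the spheroids were placed on fibrin. In 4 libraries the magnetic array under them was actuated at 4 Hz for 30 min daily (actuated array), and in 4 it was present but not moved (static array). In 6 libraries each, the labels give a high intensity or a low intensity biochemical treatment, and 6 libraries are biochemical controls. The design text speaks of medium taken from light-stimulated or unstimulated muscle, but its sample names are not tied to either intensity by the labels. The study's title sets the question of how the biochemical and the mechanical side of muscle exercise each act on motor neurons. Nothing states that the libraries of a group come from separate cultures, so the tests measure the spread between libraries, which may be technical.

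The 9 receptors belong to 3 systems. GDNF and its relative neurturin bind the co-receptors encoded by Gfra1 and Gfra2, which have no kinase of their own and signal through the tyrosine kinase RET. BDNF binds the kinase TrkB (Ntrk2) and neurotrophin-3 binds TrkC (Ntrk3), while the p75 receptor (Ngfr) binds all neurotrophins. CNTF binds the alpha subunit encoded by Cntfr, which recruits LIFR and gp130 (Il6st) and activates JAK kinases and STAT3. Embryonic motor neurons depend on such factors for survival, and glia also carry several of these receptors, among them TrkB and gp130.

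Depth differed widely and touches every value below. Total counts ran from 1536 to 13162635 per library, and 5 libraries had fewer than 1000000 counts on protein-coding genes: replicates 4 and 5 of high intensity, replicate 6 of low intensity, control replicate 4 and replicate 3 of the static array. Low intensity replicate 6 held 0 counts of all 9 receptors, and high intensity replicate 4 held between 0 and 99. The other 21 libraries, called the deeper libraries here, had 1551334 to 13162635 counts and no receptor under 38 counts. Among them are 5 controls, 5 low intensity, 4 high intensity, 3 static array and 4 actuated array libraries. The deeper array libraries held 7269276 to 13162635 counts and the deeper biochemical libraries 1551334 to 3971348, so depth cannot be told apart from the kind of culture in any comparison of the static array with the controls. Levels below are CPM (counts scaled to a library size of 1000000, with TMM factors) in the deeper libraries. Differences are given for the deeper libraries and, where stated, for all 26.

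The label "nerve cells" was compared with marker genes. The neuronal tubulin Tubb3 had group means of 478 to 680 CPM and the axonal filament gene Prph 391 to 555 CPM. Motor neuron genes were present at low levels, with group means of 5.88 to 9.40 CPM for Mnx1, 4.95 to 14.4 CPM for Isl1 and 6.09 to 11.3 CPM for the acetylcholine-synthesizing enzyme Chat, and Isl2 at 0.158 to 1.06 CPM. The astrocyte filament gene Gfap had group means of 1516 to 2410 CPM. The libraries therefore hold RNA of glial as well as neuronal genes, and fewer cells of a type cannot be told apart from less RNA per cell.

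Per length, the gp130 gene Il6st was the most abundant receptor transcript, with a median of 94.4 TPM over the 21 deeper libraries (range 39.1 to 131). TPM corrects for transcript length and scales each library to 1000000, and is used here to compare genes within a library. Group differences on the TPM scale appear below only beside the CPM values, as alternatives. Lifr followed at 59.4 TPM (31.6 to 98.0), Gfra1 at 50.7 TPM (24.1 to 85.5) and Ntrk2 at 46.8 TPM (16.6 to 63.2). These 4 stood at a median percentile of 89.0 or higher among protein-coding genes. Cntfr had 29.5 TPM, Ret 23.1 TPM, Ntrk3 21.3 TPM and Ngfr 19.6 TPM. Gfra2, the neurturin co-receptor, was lowest at 8.91 TPM (4.44 to 21.1), at the 63.9th percentile.

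Parts of this order were held by nearly all libraries and others were not. Il6st exceeded Lifr in 20 of 21 libraries, Lifr exceeded Gfra1 in 19, Ntrk2 exceeded Cntfr in 21, and Ngfr exceeded Gfra2 in 19. Gfra1 exceeded Ntrk2 in 16 libraries and Cntfr exceeded Ret in 15. Ret was above Ntrk3 in 12 of 21 and Ntrk3 above Ngfr in 13, so these 3 neighbours were not separated beyond their spread. The tables give 1 value per gene, so full-length and truncated forms of TrkB and TrkC, or the forms of RET, are not resolved.

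The transcripts of the ligands were far less abundant than those of the receptors. Of the 15 ligand genes shown, Bdnf had the highest median at 2.92 TPM (range 0.469 to 5.62). Nrtn had 1.24 TPM, Cntf 0.664 TPM and Gdnf 0.288 TPM, and Pspn was at 0 in all 21 libraries. Among the co-receptors outside the 9, Gfra3 and Gfral had medians of 0. The proteins added to the medium are not measured by sequencing.

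**Figure D1:**
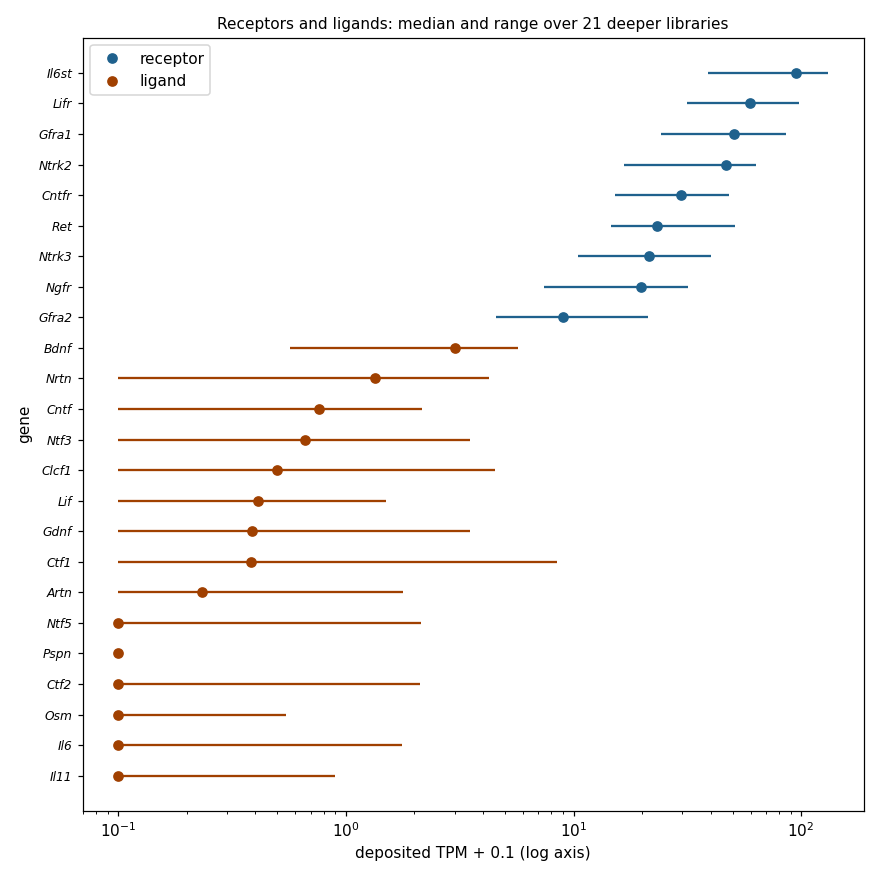
Deposited TPM plus 0.1 on a log axis for the 9 receptors (blue) and 15 ligand genes (orange), with the median (point) and the range (line) over 21 deeper libraries. The receptor medians run from 8.91 to 94.4 TPM and every ligand median shown is at or under 2.92 TPM.

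No receptor differed between groups at an adjusted p under 0.05 in edgeR's quasi-likelihood test with Benjamini-Hochberg adjustment over all genes, in any of 6 comparisons and in either set of libraries. All 9 passed the filter on low counts in both sets. Calls were rare among all genes too. With all 26 libraries, 14907 genes were fitted, and the share called was 0.0402% for high intensity, 0.0268% for low intensity and 0.0134% for static array, each against control. It was 0% for actuated against static array, for high against low intensity and for the difference between the actuation and high intensity effects. The fit of the deeper libraries held 14730 genes, and the 3 shares against control were 0.462%, 0.597% and 0.713%, with 0% in each of the other 3 comparisons. DESeq2 and limma on all libraries likewise called 0 receptors.

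Counts at an unadjusted p under 0.05 were read against the same share of all genes. With all libraries, 1 receptor of 9 reached it for high intensity against control, where 7.04% of all genes did. None of the 9 did for actuated against static array (3.86% of genes), high against low intensity (2.91%) or the difference of effects (6.57%), nor for low intensity (5.23%) or static array (5.27%) against control. Among the deeper libraries, 4 of 9 did for high intensity against control (15.9% of genes), 4 of 9 for low intensity against control (15.2%) and 2 of 9 for static array against control (12.6%). The counts were 0 of 9 for actuated against static array (0.38%) and for high against low intensity (7.68%), and 2 of 9 for the difference of effects (6.69%). The comparisons with control share their 5 control libraries, so their counts are not separate evidence.

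The median receptor difference was -0.27 on the log2 scale for high intensity against control, where the median of all genes was 0.00, and -0.21 for low intensity against control, where all genes had -0.01, in the deeper libraries. For static array against control it was -0.27, where all genes had -0.003, and these comparisons share their controls. The median was 0.06 for high against low intensity and 0.14 for actuated against static array. None of the 9 receptors had groups that did not overlap in CPM, in any pairwise comparison of deeper libraries. Among all genes, the share without overlap was 4.33% for actuated against static array, 2.63% for high against low intensity and, against control, 3.56% for high intensity, 2.25% for low intensity and 8.14% for the static array.

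Gfra2 had the largest differences from the controls in both biochemical groups of the deeper libraries. With all libraries the high intensity difference of Cntfr was larger, and for static array against control Ret had the larger difference in both sets. The CPM of Gfra2 was 38.0, 25.6, 50.0, 31.8 and 24.9 in control replicates 1, 2, 3, 5 and 6. It was 14.7, 19.1, 17.7, 25.3 and 22.8 in low intensity replicates 1 to 5, and 21.2, 15.4, 17.2 and 28.1 in high intensity replicates 1, 2, 3 and 6. Controls 1, 3 and 5 lay above all biochemically treated libraries, while controls 2 and 6 lay within their range.

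The fitted Gfra2 difference in the deeper libraries was -0.79 (log2, SE 0.21) for low intensity against control, with an unadjusted p of 0.00091 and an edgeR adjusted p of 0.062. For high intensity against control it was -0.72 (SE 0.22), with an unadjusted p of 0.0031 and an edgeR adjusted p of 0.11. All 26 libraries gave -0.71 for low intensity, with an SE of 0.36 and an edgeR adjusted p of 0.98. They gave -0.63 for high intensity, where the SE was 0.36 and the adjusted p 0.78. The sign was negative in every setting tried for both comparisons, and no fit of all the deeper libraries passed the threshold. Without control replicate 6 the low intensity difference was -0.88 with an edgeR adjusted p of 0.0447, and without high intensity replicate 6 the high intensity difference was -0.91 with 0.0412. The high and low intensity groups differed by 0.07 (95% interval -0.39 to 0.53).

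On the arrays, Gfra2 was 25.3, 23.7 and 24.4 CPM in static replicates 1, 2 and 4 and 25.1, 26.2, 27.5 and 24.8 CPM in actuated replicates 1 to 4. These 7 values lie close together, and the actuated minus static difference was 0.08 (95% interval -0.40 to 0.56). Static array against control gave -0.48 (SE 0.23), with an unadjusted p of 0.049 and an edgeR adjusted p of 0.40. All libraries gave -0.35 (SE 0.39).

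Gfra1, the GDNF co-receptor, had on average 6.17 counts (geometric mean over 21 libraries) for each count of Gfra2. Its CPM was 168, 140, 196, 211 and 168 in the controls and 130, 132, 148, 197 and 97.6 in the low intensity libraries, in replicate order. The 4 high intensity libraries had 115, 180, 90.3 and 198 CPM, spread across the whole range of the others. Against control, low intensity gave -0.33 (SE 0.18) with an edgeR adjusted p of 0.39 in the deeper libraries, and high intensity -0.27 (SE 0.19) with 0.52. All libraries gave -0.35 and -0.32 (SE 0.32 each).

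Ret, the signalling kinase, was 150, 96.4, 110, 184 and 118 CPM in the controls and 77.5, 104, 111, 122 and 88.8 CPM in the low intensity libraries. High intensity replicates 1 and 3 had 93.6 and 89.5 CPM and replicates 2 and 6 had 158 and 164 CPM. The 2 high intensity libraries with high Ret are the 2 with high Gfra1. The Ret difference in the deeper libraries from control was -0.39 for low intensity (SE 0.19), -0.06 for high intensity (SE 0.20) and -0.48 for the static array (SE 0.21). The edgeR adjusted p-values were 0.32, 0.92 and 0.35 in that order, and the unadjusted ones 0.047, 0.77 and 0.035. With all libraries the Ret differences were -0.50 (SE 0.32), -0.30 (SE 0.32) and -0.54 (SE 0.36), so the high intensity value moved most. On the log2(TPM + 1) scale, also with all libraries, that value was 0.22, against 0.28 for the median gene.

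**Figure D2:**
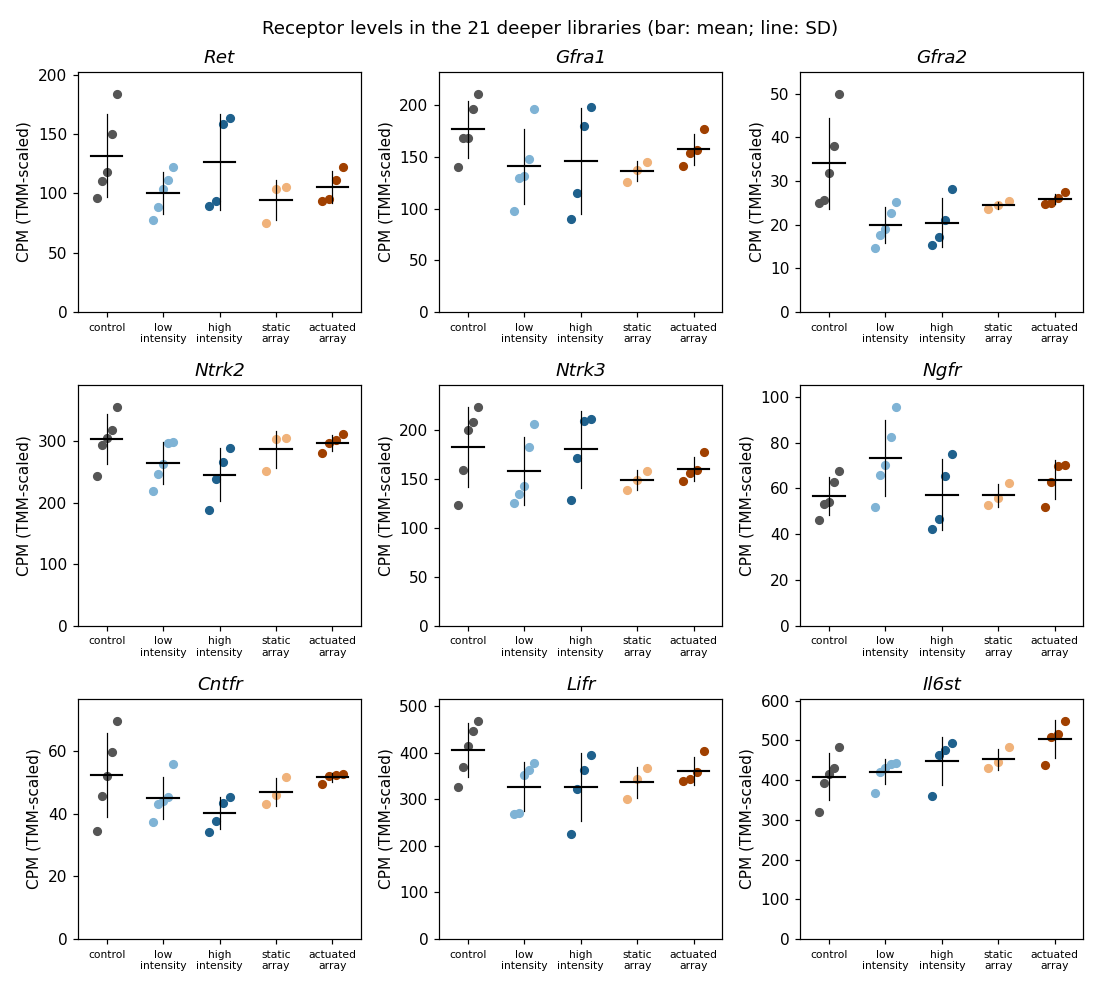
TMM-scaled CPM of each receptor (y axis, from 0) in the 21 deeper libraries by group, 1 point a library, with the group mean (bar) and SD (line). The control values of Gfra2 run from 24.9 to 50.0 CPM and the low intensity values from 14.7 to 25.3 CPM, and for each receptor the groups overlap in all 5 pairwise comparisons tested.

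Among the neurotrophin receptors, Ntrk2 was 303 ± 40.8 CPM in controls (SD, n = 5), 264 ± 34.2 in low intensity (n = 5) and 246 ± 43.1 in high intensity libraries (n = 4). The high intensity libraries held 238, 267, 189 and 289 CPM, of which 189 was the lowest of the 21, and the controls 243, 355, 305, 294 and 319 CPM. The high intensity minus control difference in those libraries was -0.30 (SE 0.13), with an unadjusted p of 0.025 and an edgeR adjusted p of 0.24. All libraries gave -0.49 (SE 0.35) at an edgeR adjusted p of 0.90, and the sign turned on the TPM scale (0.37, against a median of 0.28 over all genes).

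Ntrk3 varied widely within groups. It was 183 ± 41.0 CPM in controls, 159 ± 34.6 in low intensity, 180 ± 39.4 in high intensity, 149 ± 9.97 in static array (n = 3) and 160 ± 12.7 CPM in actuated array libraries (SD; n = 4). The control libraries alone ranged from 123 to 224 CPM, which covers every other library. The high intensity minus control difference of Ntrk3 was -0.02 in the deeper libraries (95% interval -0.37 to 0.33) and -0.32 with all libraries (-1.14 to 0.50). On the log2(TPM + 1) scale, fitted with all libraries, it was -0.54, against 0.28 for the median gene, and none of these passed the test. In the deeper libraries alone the mean TPM of Ntrk3 was higher in high intensity (26.6) than in control libraries (15.8). That negative value therefore depended on the shallow libraries. Mean TPM there was higher in high intensity than in control libraries for every receptor except Gfra2 (7.65 against 11.4). The TPM gap is thus not read as a difference of Ntrk3, whose CPM means were close.

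Ngfr was the only receptor higher than control at an unadjusted p under 0.05. Its CPM was 82.7, 70.4, 66.1, 51.8 and 95.6 in the low intensity libraries and 46.3, 53.3, 67.7, 62.7 and 53.9 in the controls. Low intensity replicates 1, 2 and 5 lay above all controls and replicate 4 lay below 4 of the 5. The difference was 0.38 in the deeper libraries (SE 0.17), with an unadjusted p of 0.033 and an edgeR adjusted p of 0.27, and all libraries gave 0.29 (SE 0.32) at an edgeR adjusted p of 1. High intensity libraries had 42.1, 75, 46.6 and 65.6 CPM, and their difference from control was 0.01 (95% interval -0.36 to 0.38). With all libraries this Ngfr difference was 0.39 (-0.27 to 1.04). On the log2(TPM + 1) scale it was 0.92, against 0.28 for the median gene, and neither value passed the test.

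Of the CNTF and LIF receptor subunits, Cntfr gave the only unadjusted p under 0.05 in the fit of all 26 libraries. That high intensity minus control difference was -0.68 (SE 0.33), with an unadjusted p of 0.048 and an edgeR adjusted p of 0.71. The deeper libraries gave a smaller value of -0.39 (SE 0.17), with an unadjusted p of 0.030 and an edgeR adjusted p of 0.25. There, Cntfr was 34.3, 43.4, 37.6 and 45.5 CPM in high intensity and 52.0, 69.7, 59.6, 34.6 and 45.8 CPM in control libraries. Control replicate 5 lay within the high intensity range and the other 4 above it. Actuated array libraries held 52.5, 52.1, 49.6 and 52.6 CPM, a narrow range beside the controls.

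Lifr was 447, 326, 415, 469 and 369 CPM in the controls, 272, 353, 378, 364 and 269 CPM in low intensity and 363, 321, 226 and 395 CPM in high intensity libraries. Low intensity replicates 1 and 5 and high intensity replicates 2 and 3 lay below every control. Both differences from control were -0.31 in the deeper libraries (SE 0.14 each). The unadjusted p was 0.032 for low and 0.043 for high intensity, and the edgeR adjusted p 0.27 and 0.29. All libraries gave -0.45 and -0.33 (SE 0.33 each), and the high intensity sign turned on the TPM scale (0.29, against 0.28 for the median gene).

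Il6st did not follow Lifr, its partner subunit. It was 409 ± 59.4 CPM in controls (SD, n = 5), 421 ± 31.1 in low intensity (n = 5), 448 ± 60.2 in high intensity (n = 4), 452 ± 27 in static array (n = 3) and 503 ± 46.8 CPM in actuated array libraries (n = 4). The differences from control in the deeper libraries were 0.04 (95% interval -0.18 to 0.26) for low intensity, 0.13 (-0.10 to 0.37) for high intensity and 0.15 (-0.11 to 0.40) for the static array. With all libraries these were -0.23, -0.20 and -0.06, so the sign depended on the shallow libraries.

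The ratio of Lifr to Il6st counts within a library does not depend on the scaling. It was 0.992 in the controls (geometric mean, range 0.858 to 1.13), 0.771 in low intensity (0.612 to 0.865), 0.719 in high intensity (0.627 to 0.855), 0.743 in static array (0.624 to 0.825) and 0.719 in actuated array libraries (0.654 to 0.795). The controls stood highest, and their range met only that of the low intensity group. Their lowest ratio (0.858) lay next to the highest of high intensity (0.855). How often other gene pairs separate this far was not computed, so the lack of overlap is not read as a result. Ngfr counts per Ntrk2 count were 0.187 in controls (0.150 to 0.222) and 0.273 in low intensity libraries (0.198 to 0.438). Gfra1 counts per Gfra2 count were 5.32 in controls, 7.02 in low and 6.96 in high intensity libraries.

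The 6 receptor pairs were chosen after their values were seen, and these ratios are a description. Over the 30 comparisons of 6 pairs in 5 contrasts, none had a Benjamini-Hochberg adjusted p under 0.05 in two-sided exact permutation tests. The lowest adjusted value was 0.238, for Lifr to Il6st in high and in low intensity against control, each with an exact p of 0.0159, and the controls are shared. For actuated against static array, 4 against 3 libraries allow no exact p under 0.0571.

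**Figure D3:**
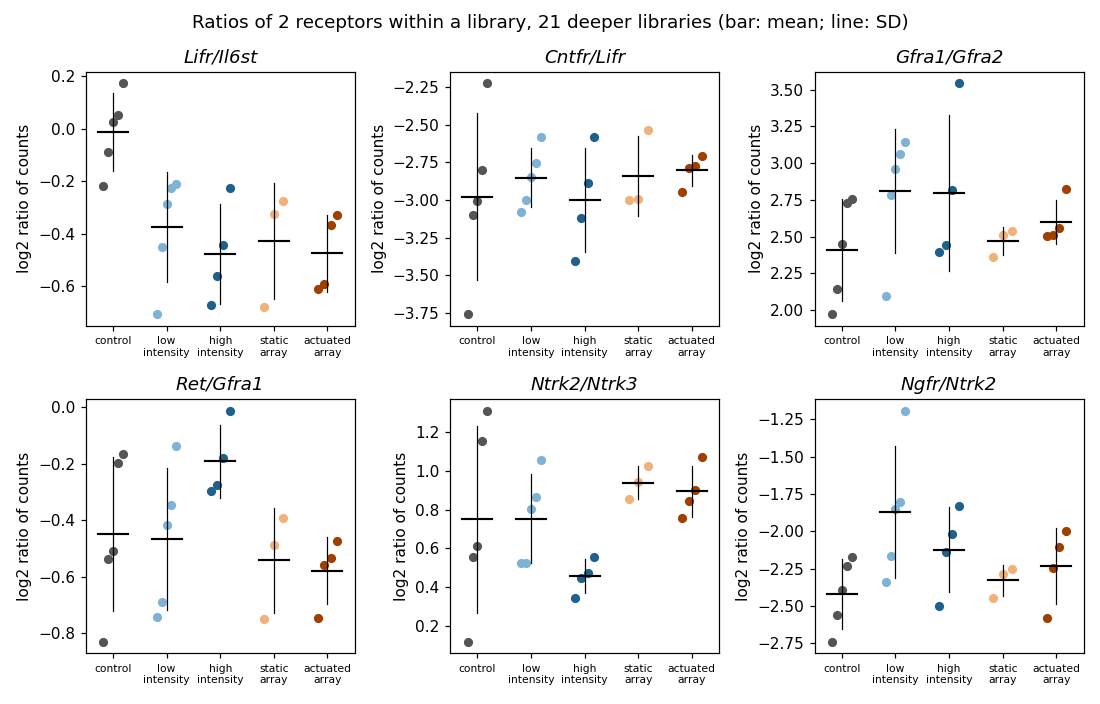
Log2 ratio of the counts of 2 receptors in 1 library (y axis), for 6 pairs in the 21 deeper libraries by group, with the mean (bar) and SD (line). For Lifr/Il6st the controls have a geometric mean ratio of 0.992 and the other groups 0.719 to 0.771.

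Actuation of the array was followed by small positive receptor differences that no test separated from 0. All 9 were positive in the deeper libraries, from 0.05 for Ntrk2 (95% interval -0.24 to 0.35) to 0.21 for Gfra1 (-0.23 to 0.65), against a median of 0.00 over all genes, and each had an edgeR adjusted p of 1. The intervals of the 9 receptors reached from -0.40 to 0.65 in these libraries, and from -0.85 to 1.18 with all libraries. The receptors share libraries and scaling, so 9 positive values are not 9 separate observations. Gfra1, for example, was 177, 154, 157 and 141 CPM in actuated and 145, 138 and 125 CPM in static libraries.

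The interaction term compared the actuated minus static difference with the high intensity minus control difference. It was 0.80 for Gfra2 in the deeper libraries (SE 0.32), with an unadjusted p of 0.020 and an edgeR adjusted p of 0.69. For Cntfr it was 0.52 (SE 0.25), with an unadjusted p of 0.043 and an edgeR adjusted p of 0.73. The other 7 receptors had values from 0.02 (Il6st) to 0.48 (Gfra1). With all libraries the term was largest for Cntfr (0.79, SE 0.51), followed by Gfra2 and Gfra1 (0.71 each). Il6st then had 0.49 and Ngfr -0.07, and each adjusted p was 1. A difference between the effects of actuation and of high intensity was not resolved for any of them.

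**Figure D4:**
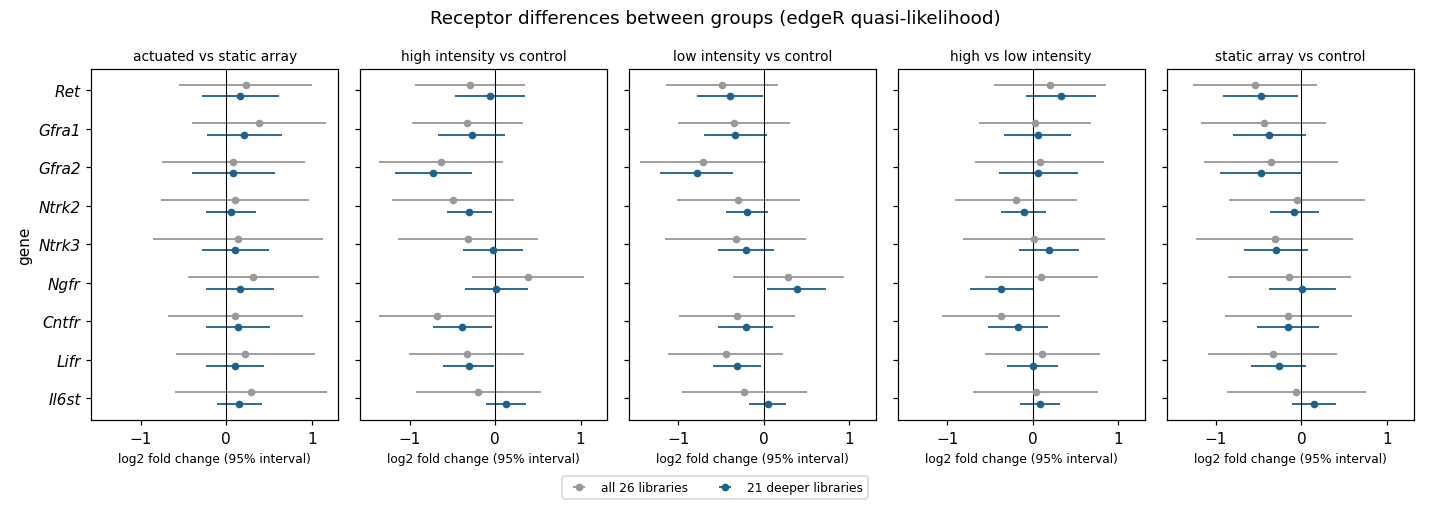
Log2 fold change (x axis) with its 95% interval for each receptor (y axis) in 5 comparisons, with all 26 libraries (grey) and with 21 deeper libraries (blue). The Gfra2 estimates of -0.72 and -0.79 for high and low intensity against control are the largest in the deeper libraries.

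The other genes of these pathways were described from 9 lists with 82 genes, of which 67 were fitted in the deeper libraries and 66 with all libraries. None was called in any comparison in either set by edgeR's adjusted p. Of the 67, 4 were higher and 5 lower at an unadjusted p under 0.05 for high intensity against control, 5 and 9 for low intensity against control, and 5 and 5 for static array against control, with 0 for actuated against static array. These counts of 67 stand beside the shares of 15.9%, 15.2%, 12.6% and 0.38% for all genes.

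Of the GDNF family ligands, only Gdnf had enough counts to be fitted. It was read 24, 8, 0, 9 and 34 times in low intensity replicates 1 to 5 and 2, 0, 0, 3 and 2 times in the controls. High intensity libraries had 1, 8, 9 and 2 counts. Scaled for depth, low intensity replicates 1, 4 and 5 had 6.64, 5.69 and 11.6 CPM, above all deeper libraries outside that group. Low intensity replicate 2 lay below high intensity replicates 2 and 3 (3.24 and 3.68 CPM), and low intensity replicate 3 was at 0. No deeper library outside the low intensity group exceeded 3.68 CPM. Gdnf therefore entered the fit largely through that group, and its p is a description. The fitted difference of low intensity from control was 3.39 (SE 1.03), with an unadjusted p of 0.0030 and an edgeR adjusted p of 0.11, and it rests on few counts. All libraries gave 3.36 at an edgeR adjusted p of 0.59. Bdnf, the TrkB ligand, was 8.88 ± 4.4 CPM in controls and 10.5 ± 1.9 CPM in low intensity libraries (SD, n = 5 each), which differ by less than their spread.

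Among the partners at the membrane, the proteoglycan gene Sdc3 had a median of 273 TPM and the adhesion molecule gene Ncam1, an alternative GDNF receptor, 208 TPM. The p75 partners Bex3 and Maged1 had 523 and 258 TPM. Of the genes inside the cell, Kidins220, a scaffold of Trk receptors, had 106 TPM and the PI3-kinase subunit gene Pik3r1 89.1 TPM. The CNTF pathway genes Jak1 and Stat3 had 179 and 93.2 TPM. All 8 exceed the median of each receptor of the 9 except that Pik3r1 and Stat3 lie below Il6st.

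No response gene downstream of the receptors passed the test. Socs3, a feedback inhibitor of JAK and STAT signalling, was 48.8 ± 9.0 CPM in controls, 41.9 ± 6.0 in low and 42.0 ± 7.4 in high intensity libraries. It was 66.5 ± 13 CPM in static and 75.8 ± 17 CPM in actuated array libraries (SD). The static array minus control difference of Socs3 was 0.44 (SE 0.18), with an unadjusted p of 0.024 and an edgeR adjusted p of 0.30. It was 0.50 (SE 0.36) with all libraries. The low intensity minus control difference of Jak1 was -0.28 (SE 0.11, edgeR adjusted p = 0.21). All libraries gave -0.36 (SE 0.36) for Jak1. Vgf and Spred1, from the ERK response list, had medians of 80.0 and 45.7 TPM, and Socs2 had 52.2 TPM.

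Summed markers of other cells differed between groups beside these values. The summed level of 7 mesenchymal markers was 311 to 861 CPM in the controls, 217 to 2479 in low intensity and 776 to 2328 CPM in high intensity libraries, against 147 to 743 CPM on the static and 46.0 to 552 CPM on the actuated array. The 6 pan-neuronal markers summed to 3274 to 3519 CPM in controls, 2530 to 3548 in low intensity and 2263 to 3365 CPM in high intensity libraries. The 7 astrocyte and radial glia markers summed to 2201 to 3065 CPM in controls, 2147 to 3790 in low intensity, 2435 to 2787 in high intensity, 3451 to 4193 on the static array and 2873 to 4533 CPM on the actuated array. The 5 oligodendrocyte lineage markers summed to 64.8 to 140 CPM in controls, 54.4 to 289 in low intensity, 85.8 to 173 in high intensity, 173 to 450 on the static and 87.2 to 469 CPM on the actuated array. The 5 neural crest and Schwann markers summed to 30.4 to 60.4 CPM in controls, 44.9 to 140 in low intensity, 46.6 to 128 in high intensity, 89.1 to 246 on the static and 42.5 to 233 CPM on the actuated array. For both of these lists every static array library lay above every control. None of these 5 lists had a marker at 0 in all libraries of a group. The part of these cells in the receptor values was not tested.

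The 8 skeletal muscle markers summed to 8.46 to 66.9 CPM in controls, 6.47 to 141 in low intensity, 16.3 to 171 in high intensity, 6.03 to 107 on the static and 4.86 to 24.8 CPM on the actuated array. The muscle regulators Myod1 and Myog were at 0 in all 5 deeper controls. The 8 motor neuron markers summed to 599 to 866 CPM in controls, 448 to 718 in low intensity, 373 to 627 in high intensity, 548 to 675 on the static and 627 to 760 CPM on the actuated array. Most of this sum is the axonal filament gene Prph, so it is not a measure of motor neuron content. Of the marker genes, Slc5a7, the choline transporter of cholinergic neurons, was called in 1 comparison. It fell by 1.88 (log2, SE 0.31) in static array against control libraries, with an edgeR adjusted p of 0.0039 in the deeper libraries and 0.59 with all libraries.

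Genes whose level followed each receptor most closely were named by the Pearson correlation of log2 CPM across the 21 deeper libraries, among 9883 genes with a mean of at least 10 CPM. They share libraries, depth and scaling with the receptor, and no p is given. For Ret these were Zfp704 (r = 0.907) and Ptprd (0.883), for Gfra1 Disp2 (0.878) and Lhfpl4 (0.854), and for Lifr Norad (0.869) and Map2 (0.859). For Ntrk2 they were Galnt16 (0.871) and Map1a (0.842), for Ntrk3 Pgap1 (0.851) and Fsd1l (0.843), and for Il6st Itgb4 (0.865) and Gpam (0.814).

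The closest genes had lower r for the other receptors. They were Acvr1 (r = 0.778) and Nploc4 (0.776) for Ngfr, Ngrn (0.837) and Zfp316 (0.811) for Cntfr, and Hecw1 (0.819) and Kbtbd3 (0.804) for Gfra2. Within the 14 biochemical libraries the Gfra2 and Cntfr values were 0.832, 0.868, 0.922 and 0.933, in the order Hecw1, Kbtbd3, Ngrn, Zfp316. Within the 7 array libraries, where both receptors varied little, they were -0.126, -0.819, -0.438 and -0.474. The genes were picked for their r over libraries of which 14 of 21 are biochemical, so the 2 sets are not compared. For Ntrk3 and Fsd1l the values were 0.863 and 0.358, and for Ret and Zfp704 0.924 and 0.898.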

How the data were processed

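Low-input total RNA libraries with enzymatic rRNA depletion were sequenced as paired 50-base reads, per the labels' protocols. The authors deposited 1 estimated count per gene and library, written as a whole number and not scaled for depth. The authors also deposited TPM values, scaled to 1000000 per library, for the same 56941 genes. The submitters' processing notes name BWA 0.7.12-r1039, bedtools 2.25.0, STAR and Salmon, and the builds mm10, hg19 and GRCm39, without roles, so no coordinates are given. The columns of the high and low intensity groups were matched to the labels by letter and number.

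Tests used edgeR 4.0.16 (R 4.3.3): 1 model over all 26 libraries, TMM, filterByExpr, the quasi-likelihood F-test and Benjamini-Hochberg adjustment per comparison at 0.05. The same fit on 21 libraries with at least 1000000 protein-coding counts stands beside it. Alternatives used DESeq2 1.42.0 and limma 3.58.1 (log2 of TPM plus 1 or 0.1), each on all 26 libraries. The scripts were tested on simulated data. The members, gene lists and comparisons were chosen with earlier results of these data known. All 9 receptors are named, with the 2 genes of highest median TPM in each list, any listed gene with an adjusted p under 0.05, and the 2 genes most like each receptor. Gfra3, Gfral and Pspn were named after their values were seen, and some listed genes are not reported here. A direction counts as read only where a log2 fold change exceeds 2 SE with all libraries. Intervals cover counting error and the spread between libraries. In the deeper libraries, 3 counts correspond to 0.253 to 2.14 CPM.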

Additional observations from a re-analysis of the deposited data

How the results depend on the processing

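Over 59 alternatives for each of 6 comparisons (47 of them leaving out 1 library), the number of receptors called by adjusted p stayed at 0 except where 1 deeper library was left out. The range was then 0 to 1 for high intensity against control and for low intensity against control: leaving out replicate 6 of high intensity in the first, or replicate 6 of the controls in the second, brought Gfra2 past the threshold. Of the 54 differences of a receptor in a comparison, 24 kept their sign in every alternative and 30 did not. Only Cntfr in high intensity against control exceeded 2 SE with all libraries, and it kept its sign. Same-numbered libraries mostly did not deviate together: 1 of 16 pairs had a correlation over 0.1 (range -0.190 to 0.133), and 3 libraries were closest to their own number. For actuated against static array, replicates 1 and 4 were closest to their own number (0.098 and 0.133) and replicate 2 was not (-0.100). So few pairs do not settle whether the array numbers mark pairs. With a replicate block, 0 receptors were called in every comparison, with all and with the deeper libraries.

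Group means over all libraries differed from those of the deeper libraries by more than 1 SD for Gfra1 (actuated 177 CPM), Gfra2 (static 27.6, actuated 29.2), Ntrk2 (actuated 336), Ntrk3 (static 164, actuated 181), Ngfr (high intensity 87.1), Cntfr (high intensity 34.7, static 54.4, actuated 58.3), Lifr (actuated 408) and Il6st (control 484, actuated 568). No actuated library is shallow: scaling with the shallow libraries alone raised the actuated values 1.13 times on average. By median CPM in place of TPM, Ntrk2 ranked 3, Ntrk3 4, Gfra1 5, Ngfr 7 and Cntfr 8. On the log2(TPM + 1) scale with all libraries, the median of all genes shifted by 0.28 for high intensity, 0.19 for low intensity and 0.74 for static array, each against control. The 7SL RNA genes Rn7s1 and Rn7s2 took 27.8% to 61.0% of TPM in the deeper controls and 11.9% to 19.9% in the deeper low intensity libraries. They took 12.1% to 32.7% in the deeper high intensity, 19.2% to 30.2% in the static and 14.7% to 26.9% in the actuated array libraries. The part of these RNAs in the shifts was not tested.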
